A study of Homo sapiens with 8 samples.

Results

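The SLC25 genes encode the mitochondrial carriers, and 45 of them were followed on arrays from a leukaemia cell line in which an shRNA lowered ZMIZ1. The members are all genes whose annotation on the array gives a single symbol made of SLC25A and a number. They have 93 probe sets, and the brightest of them, averaged over the 8 arrays without regard to group, stands for each gene. These are 45 of 20282 genes measured.

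Mitochondrial carriers are nuclear-encoded proteins of tandem membrane-spanning repeats, nearly all in the inner membrane, where they exchange nucleotides, phosphate, carboxylates, amino acids, cofactors and iron between cytosol and matrix. They couple cytosolic metabolism to respiration, and in proliferating leukaemia cells they supply building blocks and reducing equivalents as well as ATP. A few members lie in the outer membrane or in peroxisomes, and several have no established substrate.

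The study used CEM, an established human line from a T-cell acute lymphoblastic leukaemia. Its 4 ZMIZ1 knockdown cultures received an shRNA against ZMIZ1, a transcriptional coactivator, and its 4 control cultures a scrambled shRNA. The labels call the replicates biological and non-paired and name no other shRNA against ZMIZ1, so effects of this shRNA on other transcripts and those of lower ZMIZ1 cannot be told apart. Total RNA was measured on Affymetrix HG-U133 Plus 2.0 arrays, one culture to an array, and all values are log2 signals. In such bulk RNA, fewer cells with a transcript and less of it per cell cannot be told apart.

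ZMIZ1 itself had log2 values of 9.76, 9.95, 10.01 and 10.07 in knockdown arrays, against 11.07, 11.18, 11.19 and 11.20 in control arrays. It fell by 1.21 ± 0.08 (SE; adjusted p = 1.44e-05) on the log2 scale, to 43.2% of the control level, with an exact two-sided permutation p = 0.0286, the smallest that 70 assignments of arrays can give. The 18S ribosomal RNA signal, a mean over 3 control probe sets, also separated the groups, at 12.12, 11.67, 9.85 and 10.21 in knockdown arrays and 13.37, 13.24, 13.06 and 12.70 in control arrays. Knockdown arrays 3 and 4 thus stood apart, and results below are given with this signal as a covariate or with knockdown arrays 1 and 2 alone where that matters. Among T lineage markers CD3D (13.22 in knockdown and 13.41 in control arrays) and LCK (10.76 and 10.63) had high values, while CD2 (4.12 and 4.02) and CD5 (5.87 and 5.70) lay under 6 in both groups. Of the 10 T lineage markers CD3E rose, by 1.06 (8.41 in knockdown and 7.36 in control arrays; adjusted p = 0.000212), and 9 did not pass. With the 18S covariate CD3E differed by 0.66 and did not pass (limma, adjusted p = 0.0921). Of the B lineage markers CD79B (8.02 and 7.98) and CD79A (7.41 and 7.28) lay above 6, whereas MS4A1 and PAX5 were lower. Of the 5 myeloid markers CSF1R averaged 6.01 in knockdown and 5.93 in control arrays, and CD14, CD33, MPO and LYZ were under 6 in both groups. Of the erythroid markers HBB rose by 0.44, at 5.97 in knockdown and 5.53 in control arrays. With the 18S covariate HBB differed by 0.28 and did not pass (limma, adjusted p = 0.356). The part of these markers in the carrier results was not tested.

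The comparison asks which carrier transcripts differ when ZMIZ1 is lowered. Of the 45 SLC25A genes 6 rose, 3 fell and 36 did not pass the threshold (limma, Benjamini-Hochberg adjusted p under 0.05 over all genes). That is 20% of the members, beside 22.1% of all genes tested, so the share of called carriers was near the background. Among genes at 6 or above in a group, 8 of 36 members passed (22.2%), beside 34.3% of such genes. Over all genes 14.7% rose and 7.38% fell. The median difference, knockdown minus control, was 0.04 over the members and 0.03 over all genes. The groups did not overlap in 11 members, 6 higher and 5 lower in knockdown arrays, against 25.2% of all genes. The 9 called genes changed between 1.22-fold and 1.71-fold in size, and no representative probe set differed by over 1 on the log2 scale.

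**Figure D1:**
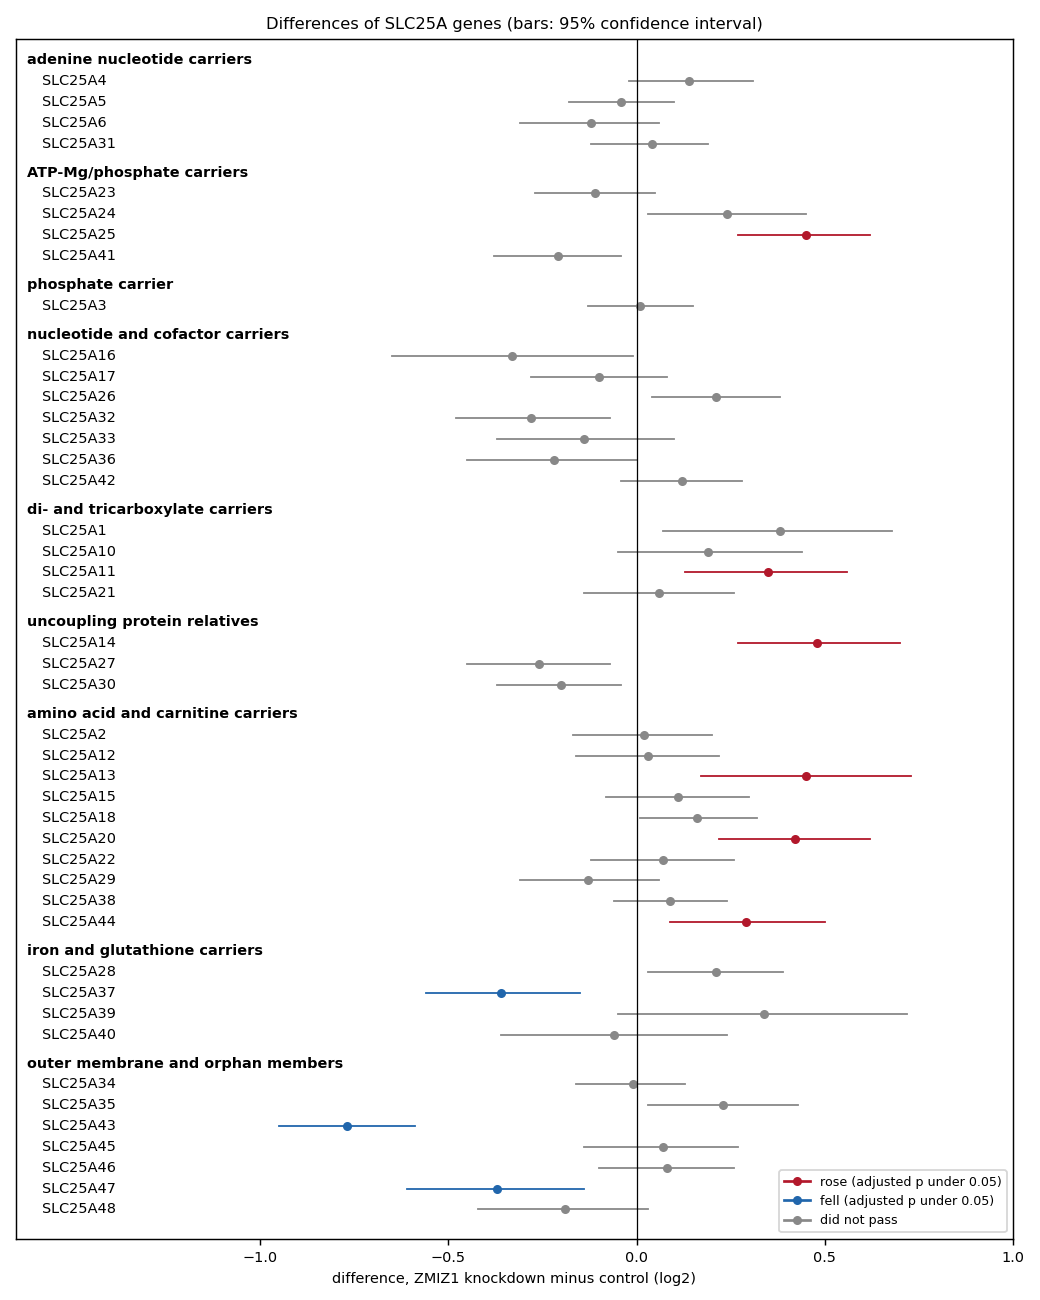
Differences of the SLC25A genes described in the text (x axis, knockdown minus control, log2; bars are 95% confidence intervals), grouped by transport role down the page. The 6 genes that rose and the 3 that fell are coloured; SLC25A43 at -0.77 lies farthest from 0 and the adenine nucleotide and phosphate carriers lie close to it.

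The rises were in carriers of different substrates: SLC25A25 for ATP-Mg and phosphate, SLC25A14 among the uncoupling protein relatives, SLC25A20 for acylcarnitines, SLC25A11 for 2-oxoglutarate and malate, SLC25A13 for aspartate and glutamate, and SLC25A44 for branched-chain amino acids. The falls were in SLC25A43, which has no established substrate, SLC25A37, the iron importer mitoferrin-1, and SLC25A47, a carrier known mainly from liver. By role, 3 of 10 amino acid and carnitine carriers, 1 of 4 ATP-Mg/phosphate carriers, 1 of 4 di- and tricarboxylate carriers and 1 of 3 uncoupling protein relatives rose. A fall was called in 1 of 4 iron and glutathione carriers and in 2 of 7 outer membrane and orphan members. These small groups stand beside 14.7% risen and 7.38% fallen among all genes. None of the 4 adenine nucleotide carriers, the 8 nucleotide and cofactor carriers or the phosphate carrier passed with limma on its representative probe set. Of these groups 0, 3 and 0 genes had an unadjusted p under 0.05, beside 6918 of all 20282 genes.

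Promoter sequence is shown for the fall and the rise with the smallest adjusted p, SLC25A43 and SLC25A25. It is also shown for the pyrimidine nucleotide carriers SLC25A36 and SLC25A33, whose windows each hold both motifs marked below. These carriers did not pass on their representative probe sets. The windows run from 250 bases before to 50 after the first listed start of each gene in RefSeq (GRCh38.p14), all on the plus strand. SLC25A25 lies at chr9:128098257-128098556, SLC25A43 at chrX:119399086-119399385, SLC25A36 at chr3:140941586-140941885 and SLC25A33 at chr1:9539215-9539514. Capitals mark CACGTG, the E-box bound by MYC and related factors, and TGACGTCA, the cyclic AMP response element (CRE).
SLC25A25: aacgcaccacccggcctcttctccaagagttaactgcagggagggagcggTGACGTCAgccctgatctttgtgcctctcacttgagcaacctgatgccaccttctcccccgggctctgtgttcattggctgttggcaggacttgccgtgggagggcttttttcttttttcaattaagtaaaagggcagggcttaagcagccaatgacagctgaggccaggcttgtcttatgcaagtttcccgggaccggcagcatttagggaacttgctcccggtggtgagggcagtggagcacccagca
SLC25A43: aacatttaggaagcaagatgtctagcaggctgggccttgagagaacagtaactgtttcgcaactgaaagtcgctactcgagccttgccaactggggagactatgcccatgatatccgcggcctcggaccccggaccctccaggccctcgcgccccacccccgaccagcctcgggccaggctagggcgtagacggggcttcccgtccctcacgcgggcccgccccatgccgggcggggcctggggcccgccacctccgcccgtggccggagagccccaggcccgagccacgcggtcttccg
SLC25A36: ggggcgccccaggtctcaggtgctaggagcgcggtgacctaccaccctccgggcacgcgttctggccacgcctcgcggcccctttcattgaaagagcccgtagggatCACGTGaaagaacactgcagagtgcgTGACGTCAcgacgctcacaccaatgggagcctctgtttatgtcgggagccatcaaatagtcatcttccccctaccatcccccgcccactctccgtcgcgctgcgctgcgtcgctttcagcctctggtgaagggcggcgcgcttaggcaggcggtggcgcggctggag
SLC25A33: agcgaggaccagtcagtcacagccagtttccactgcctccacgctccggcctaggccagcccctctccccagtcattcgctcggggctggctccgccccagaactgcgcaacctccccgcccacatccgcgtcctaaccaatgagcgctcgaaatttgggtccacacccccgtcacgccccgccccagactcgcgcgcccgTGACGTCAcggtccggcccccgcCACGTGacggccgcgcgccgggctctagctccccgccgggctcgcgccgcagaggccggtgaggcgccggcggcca

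A promoter window was found for 37 of the 45 members; those without one include SLC25A2, SLC25A16, SLC25A30, SLC25A32, SLC25A35, SLC25A37 and SLC25A41. Searched on both strands, CACGTG was in 6 of the 37 windows (16.2%), those of SLC25A13, SLC25A31, SLC25A33, SLC25A36, SLC25A38 and SLC25A46, against 7.43% of the 27305 RefSeq windows of the same length. TGACGTCA was in 3 (8.11%, against 1.98%), those of SLC25A25, SLC25A33 and SLC25A36. CCAAT was in 18 (48.6%, against 35.7%), TGATGNAA, the letters of a C/EBP-ATF composite site, in SLC25A11 alone (2.7%, against 3.67%), and the palindromic NRF1 core in 0 (against 1.36%). These motifs did not overlap each other in the windows printed. Of the called carriers, SLC25A13 held CACGTG and SLC25A25 held TGACGTCA, while the window of SLC25A43 held neither. The reference windows include those of noncoding genes, and a match describes letters only.

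SLC25A43 had the largest difference of the family. Its values were 8.14, 8.38, 8.09 and 8.22 in knockdown arrays, against 8.89, 9.02, 9.06 and 8.94 in control arrays. Every knockdown array lay below every control array by a wide margin. It fell by 0.77 ± 0.08 (SE; adjusted p = 0.000148), to 58.6% of the control level, on the only probe set it has. That probe set is 1557411_s_at, so the alternative without _s_at and _x_at probe sets could not include SLC25A43. The difference was -0.72 with knockdown arrays 1 and 2 alone (adjusted p = 0.00492) and -0.68 with the 18S covariate, which ended the call (adjusted p = 0.0554).

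SLC25A47 and SLC25A37 also fell. SLC25A47 had values of 5.09, 5.02, 5.40 and 5.05 in knockdown arrays and 5.51, 5.67, 5.60 and 5.27 in control arrays. The groups overlapped, because knockdown array 3 lay above control array 4. The difference was -0.37 ± 0.11 (SE; adjusted p = 0.0289), at a level under 6 in both groups, and only 2 of 8 fits with an array left out still passed (adjusted p up to 0.0845).

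SLC25A37, mitoferrin-1, imports iron for haem and iron-sulfur cluster synthesis. Its representative probe set 226179_at had values of 7.71, 7.95, 7.90 and 7.98 in knockdown arrays, against 8.46, 8.27, 8.09 and 8.15 in control arrays. The groups did not overlap, with the lowest control array close to the highest knockdown array. It fell by 0.36 ± 0.10 (SE; adjusted p = 0.0196), or to 78.2% of control, and it passed in all 8 fits that omit an array (adjusted p between 0.0215 and 0.0486). With knockdown arrays 1 and 2 alone the difference was -0.41 (adjusted p = 0.067), and it was -0.43 with the 18S covariate (adjusted p = 0.252).

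Among the rises, SLC25A25 was the most even across cultures. This calcium-regulated carrier moves ATP-Mg against phosphate and so sets the adenine nucleotide content of the matrix. It had values of 8.27, 8.24, 8.32 and 8.27 in knockdown arrays, against 7.63, 7.83, 7.93 and 7.92 in control arrays. All knockdown arrays lay above all controls. It rose by 0.45 ± 0.08 (SE; adjusted p = 0.0024), or 1.36-fold, and by 0.43 with knockdown arrays 1 and 2 alone (adjusted p = 0.0345).

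SLC25A14, an uncoupling protein relative first described in brain, had values of 8.86, 8.97, 9.14 and 8.97 in knockdown arrays, against 8.74, 8.40, 8.51 and 8.35 in control arrays. The groups did not overlap, although control array 1 came near knockdown array 1. It rose by 0.48 ± 0.10 (SE; adjusted p = 0.00447), or 1.4-fold. Its other probe set, 211855_s_at, separated the groups further, with 8.12, 8.21, 8.31 and 8.30 in knockdown arrays and 7.53, 7.75, 7.63 and 7.76 in control arrays, and rose by 0.57 ± 0.08 (SE; over all probe sets, adjusted p = 0.00197). With knockdown arrays 1 and 2 alone the first of these differences was 0.41 (adjusted p = 0.0599). That of 211855_s_at was 0.50 there and passed (limma over all probe sets, adjusted p = 0.0365).

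SLC25A20, the carnitine/acylcarnitine carrier, brings fatty acyl groups into the matrix for beta-oxidation. Its values were 8.64, 8.72, 8.80 and 8.57 in knockdown arrays, against 8.09, 8.16, 8.38 and 8.41 in control arrays, again without overlap. It rose by 0.42 ± 0.09 (SE; adjusted p = 0.00706), or 1.34-fold, and by 0.42 with knockdown arrays 1 and 2 alone (adjusted p = 0.0485).

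SLC25A11 and SLC25A13 are the carriers of the malate-aspartate shuttle that rose. SLC25A11, which exchanges 2-oxoglutarate for malate, had values of 9.83, 9.93, 10 and 10.13 in knockdown arrays, against 9.44, 9.80, 9.51 and 9.74 in control arrays. The groups did not overlap, but knockdown array 1 and control array 2 nearly met. It rose by 0.35 ± 0.10 (SE; adjusted p = 0.0257), or 1.27-fold. The call held in 4 of 8 fits with an array left out, and its other probe set, 209003_at, rose by 0.52 ± 0.10 (SE; over all probe sets, adjusted p = 0.00842). With the 18S covariate the difference was 0.12 (adjusted p = 0.783), and with knockdown arrays 1 and 2 alone it was 0.25 (adjusted p = 0.219).

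SLC25A13, citrin, carries aspartate out of mitochondria in exchange for glutamate. Its values were 8.29, 8.38, 8.59 and 8.43 in knockdown arrays, against 8.41, 7.88, 7.84 and 7.77 in control arrays. Control array 1 lay among the knockdown arrays, far above the other controls. It rose by 0.45 ± 0.13 (SE; adjusted p = 0.0274), and without control array 1 the adjusted p was 0.00123. The call ended in 5 other fits with an array left out (adjusted p up to 0.0835). Its dimmer probe set 229061_s_at had a difference of -0.57 ± 0.23 that did not pass (adjusted p = 0.13 over all probe sets), opposite in sign to the representative. It was low in knockdown arrays 3 and 4, with 6.04, 6.06, 5.23 and 5.40 in knockdown arrays and 6.35, 6.75, 6.14 and 5.79 in control arrays. Its difference was -0.20 with knockdown arrays 1 and 2 alone and 0.35 with the 18S covariate, where the representative also differed by 0.35. Its paralog SLC25A12, aralar, had a difference of 0.03 (95% confidence interval -0.16 to 0.22).

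The enzymes of the same shuttle, GOT1, GOT2, MDH1 and MDH2, did not pass, with differences from -0.07 to 0.05. SLC25A44 had values of 9.83, 9.89, 10.04 and 9.99 in knockdown arrays, against 9.84, 9.70, 9.62 and 9.43 in control arrays. Control array 1 lay just above knockdown array 1, the only overlap. It rose by 0.29 ± 0.09 (SE; adjusted p = 0.0428), and 2 of 8 fits with an array left out still passed (adjusted p up to 0.112). Of the 9 called carriers, 5 passed in all 8 fits that omit an array: SLC25A14, SLC25A20, SLC25A25, SLC25A37 and SLC25A43.

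**Figure D2:**
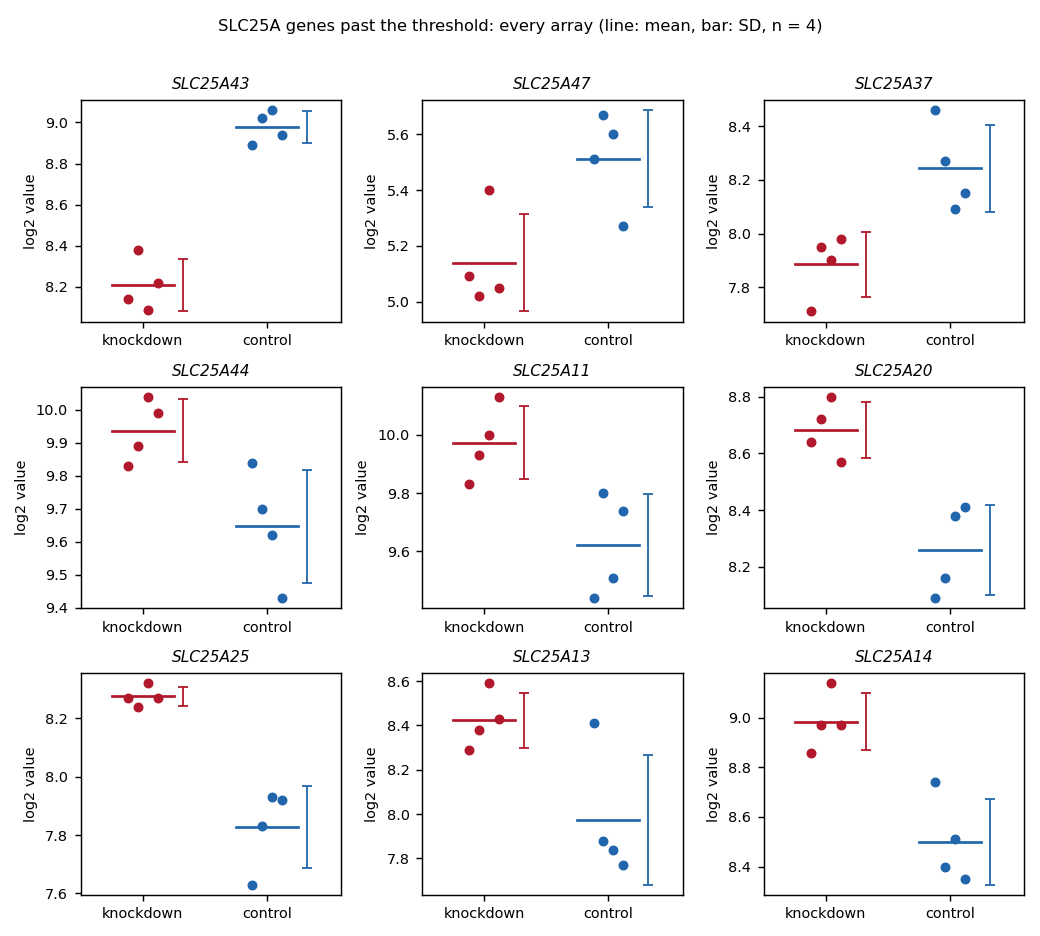
Log2 values (y axis, a scale of its own for each gene) of the 9 SLC25A genes past the threshold in every array, with knockdown arrays left and control arrays right; horizontal lines are means and bars SD (n = 4 each). SLC25A43 and SLC25A25 show the clearest separation, while SLC25A13, SLC25A44 and SLC25A47 overlap.

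With the 18S covariate none of the 45 carriers passed with limma, beside 1.21% of all genes. In that fit 4 carriers had an unadjusted p under 0.05, a count that was not made over all genes. All 9 called carriers kept their direction there. Their median size was 0.35 with the covariate and 0.42 without it, and the median standard error over the 45 members was 0.15 with the covariate and 0.0866 without it. With knockdown arrays 1 and 2 alone 4 carriers passed, SLC25A20 and SLC25A25 higher and SLC25A43 and SLC25A47 lower, beside 9.31% of all genes. The part of the 18S signal, which moved with the groups, in these results was not tested beyond these values.

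None of the carriers that export ATP passed the threshold. SLC25A5, the adenine nucleotide translocase of proliferating cells, averaged 13.68 ± 0.02 in knockdown and 13.72 ± 0.04 in control arrays (SD, n = 4), with a difference of -0.04 (95% confidence interval -0.18 to 0.10). SLC25A6 differed by -0.12 (interval -0.31 to 0.06), and its other probe set, 212085_at, by -0.19 (interval -0.48 to 0.10). SLC25A4, the isoform of heart and muscle, differed by 0.14 (interval -0.02 to 0.31, limma adjusted p = 0.209). SLC25A31, the testis isoform, lay near 3 in both groups (3.30 and 3.27). SLC25A3, which brings in the phosphate for ATP synthesis, averaged 13.68 ± 0.02 in knockdown and 13.67 ± 0.03 in control arrays, a difference of 0.01 (interval -0.13 to 0.15). The intervals for the signals of SLC25A3 and SLC25A5 lay within 0.2 of no difference on the log2 scale. Signals this high can compress differences, so larger changes of the transcripts are not excluded. Among the relatives of SLC25A25, SLC25A24 differed by 0.24 (adjusted p = 0.101), SLC25A23 by -0.11 and SLC25A41 by -0.21, and none of these passed. SLC25A41 lay under 6 in both groups.

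The other carboxylate and amino acid carriers did not pass. SLC25A1, which exports citrate for lipid synthesis, had values of 8.67, 8.86, 9.24 and 9.29 in knockdown arrays, against 8.39, 8.83, 8.67 and 8.66 in control arrays. Only knockdown arrays 3 and 4 lay clearly above the controls. The difference was 0.38 ± 0.14 (SE; adjusted p = 0.0777), but 0.13 with knockdown arrays 1 and 2 alone and -0.18 with the 18S covariate. The dicarboxylate carrier SLC25A10 differed by 0.19 and the oxodicarboxylate carrier SLC25A21, under 6 in both groups, by 0.06. Of the 10 amino acid and carnitine carriers, the 3 called included, 9 were higher and 1 lower, beside 11405 higher and 8877 lower among all genes. That count rests on the representative probe sets. SLC25A13, SLC25A15, SLC25A18 and SLC25A29 have a further probe set of opposite sign, such as 222705_s_at of SLC25A15 (-0.31). The further probe sets of SLC25A12 and SLC25A44 kept the sign. The differences of SLC25A2 (-0.13), SLC25A12 (-0.22), SLC25A15 (-0.04) and SLC25A22 (-0.18) were below 0 with the 18S covariate. That of SLC25A29, the 1 lower carrier, was 0.05 there. The ornithine carrier SLC25A15 (0.11), the glutamate carrier SLC25A22 (0.07), the glycine carrier SLC25A38 (0.09), the basic amino acid carrier SLC25A29 (-0.13), SLC25A18 (0.16) and SLC25A2 (0.02) did not pass. Of these, SLC25A18 and SLC25A2 lay under 6 in both groups.

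The uncoupling protein relatives did not move together. Beside the rise of SLC25A14, SLC25A27 differed by -0.26 (adjusted p = 0.0513) and SLC25A30 by -0.20 (adjusted p = 0.0764), both without overlap between groups and both short of the threshold. SLC25A27 lay under 6 in both groups. In the iron and glutathione group, mitoferrin-2, SLC25A28, differed by 0.21 (adjusted p = 0.0853), opposite in sign to mitoferrin-1. SLC25A39 and SLC25A40 are linked to glutathione import. SLC25A39 differed by 0.34 (adjusted p = 0.212), but by 0.04 with knockdown arrays 1 and 2 alone and by -0.34 with the 18S covariate, and SLC25A40 differed by -0.06. Among the orphan and outer membrane members, SLC25A35 (0.23), SLC25A46 of the outer membrane (0.08), SLC25A45 (0.07), SLC25A34 (-0.01) and SLC25A48 (-0.19) did not pass. Of these, SLC25A34 and SLC25A48 lay under 6 in both groups.

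Cofactor carriers stayed short of the threshold on their representative probe sets. SLC25A32, a carrier linked to folate and FAD, had values of 11.19, 11.26, 10.86 and 11.09 in knockdown arrays, against 11.47, 11.27, 11.38 and 11.39 in control arrays. The groups only just failed to overlap. The difference of -0.28 ± 0.09 (SE) narrowly missed the threshold (adjusted p = 0.0526), and it was -0.01 with the 18S covariate. It passed without dim genes (adjusted p = 0.0377), with a mean-variance trend (0.0366) and without knockdown array 2 (0.0364), and did not pass under the other alternatives run (adjusted p up to 0.989). SLC25A26, the S-adenosylmethionine carrier, differed by 0.21 (adjusted p = 0.0721), the coenzyme A carrier SLC25A42 by 0.12 and the pyrimidine nucleotide carrier SLC25A33 by -0.14.

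The choice of probe set mattered most in this group. Of 24 members with more than 1 probe set, 6 had at least 1 call in the fit over all probe sets and 18 had none, and no gene had calls in both directions. Over the 93 probe sets 8 rose and 9 fell, beside 13.9% of all probe sets called, 8.38% higher and 5.52% lower. In 3 genes, SLC25A16, SLC25A17 and SLC25A36, the representative probe set did not pass while another did. These counts of genes were not made over all genes with several probe sets, so their usual share is not known. The called genes SLC25A13 (adjusted p = 0.05), SLC25A44 (0.0685) and SLC25A47 (0.0509) did not pass when adjusted over all probe sets. In the deposited table of the authors, 12 of the 93 probe sets had a p under 0.01 and a ratio beyond 1.3-fold, 7 higher and 5 lower, beside 7.28% of all probe sets.

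SLC25A16, linked to coenzyme A in mitochondria, had the largest rise on any carrier probe set. Probe set 235747_at had values of 8.59, 8.79, 8.89 and 8.65 in knockdown arrays, against 7.60, 7.73, 7.52 and 7.28 in control arrays. The lowest knockdown array lay well above the highest control. It rose by 1.20 ± 0.11 (SE; over all probe sets, adjusted p = 0.000355), or 2.29-fold, and by 1.16 with knockdown arrays 1 and 2 alone (adjusted p = 0.012). Probe set 214140_at rose by 0.75 ± 0.11 (adjusted p = 0.00265), with 7.18, 7.56, 7.28 and 7.50 in knockdown arrays and 6.75, 6.63, 6.76 and 6.38 in control arrays. The representative probe set 210686_x_at, of a type that can cross-hybridize, went the other way without passing, by -0.33 ± 0.15 (adjusted p = 0.183). The dim 209910_at differed by 0.29 (adjusted p = 0.0761). With the 18S covariate the difference of 235747_at was 1.15 and no longer passed (adjusted p = 0.0715).

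SLC25A36, which carries pyrimidine nucleotides, had the largest fall on any carrier probe set and a wide spread among its probe sets. Probe set 201917_s_at had values of 8.90, 8.43, 7.25 and 7.65 in knockdown arrays, against 9.96, 9.62, 9.52 and 9.69 in control arrays. Probe set 201918_at had 10.28, 10.25, 9.30 and 9.45 in knockdown arrays, against 10.54, 10.60, 10.69 and 10.95 in control arrays. In both, knockdown arrays 3 and 4, those with the lowest 18S signal, were far below knockdown arrays 1 and 2. They fell by 1.64 ± 0.30 (SE; adjusted p = 0.0057) and by 0.88 ± 0.21 (adjusted p = 0.0222). With knockdown arrays 1 and 2 alone the differences were -1.03 (adjusted p = 0.0192) and -0.43 (adjusted p = 0.0999). With the 18S covariate they were -0.27 and -0.04 (adjusted p = 0.622 and 0.967). The representative probe set 201919_at held 10.78, 10.77, 10.46 and 10.66 in knockdown arrays and 10.73, 10.76, 10.99 and 11.08 in control arrays, which overlapped, and its difference of -0.22 ± 0.11 did not pass. The dim probe set 237741_at fell by 0.42 (adjusted p = 0.0267). Its difference was -0.47 with knockdown arrays 1 and 2 alone and -0.49 with the 18S covariate, and neither passed (limma, adjusted p = 0.102 and 0.337).

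SLC25A37 showed the same split over its 9 probe sets, of which 4 fell and 5 did not pass. Probe sets 222529_at and 222528_s_at fell by 1.07 ± 0.27 (SE; adjusted p = 0.0265) and 0.99 ± 0.21 (adjusted p = 0.0115). Their lowest values were again in knockdown arrays 3 and 4, with 7.86, 7.55, 6.42 and 7.0 in knockdown arrays for 222529_at, against 8.42, 8.62, 8.16 and 7.91 in control arrays. With the 18S covariate the differences were 0.17 and -0.11. Probe set 221920_s_at, like 226179_at, fell by a smaller and steadier 0.44 ± 0.10 (adjusted p = 0.0182), with 7.51, 7.46, 7.37 and 7.46 in knockdown arrays and 7.82, 7.93, 7.65 and 8.15 in control arrays, and -0.41 with the covariate. Over the 9 probe sets differences ran from -1.07 to 0.05.

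**Figure D3:**
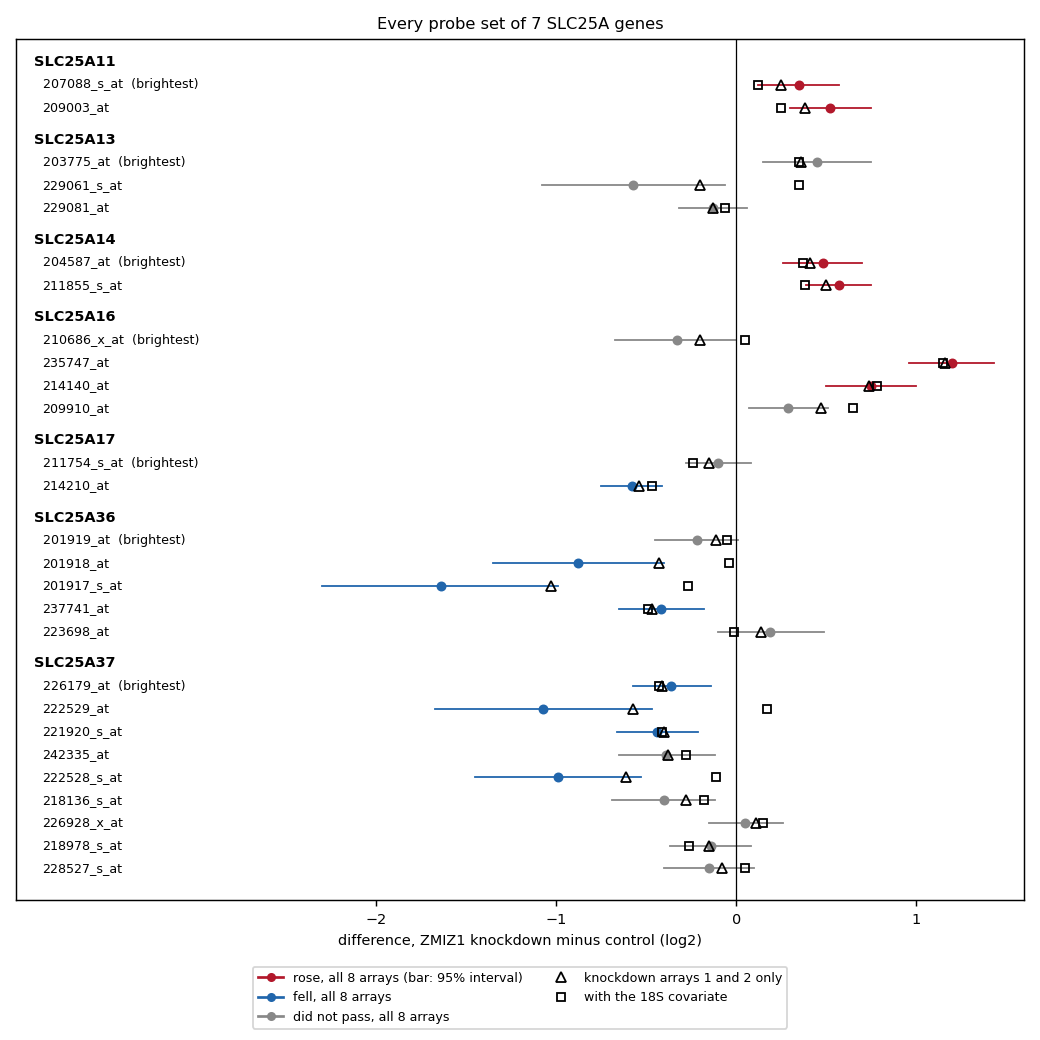
Differences (x axis, knockdown minus control, log2) of every probe set of 7 SLC25A genes, brightest first within each gene: circles with 95% confidence intervals for all 8 arrays, triangles for knockdown arrays 1 and 2 alone, squares with the 18S covariate. The probe sets of SLC25A36 span -1.64 to 0.19 and those of SLC25A16 span -0.33 to 1.20.

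**Figure D4:**
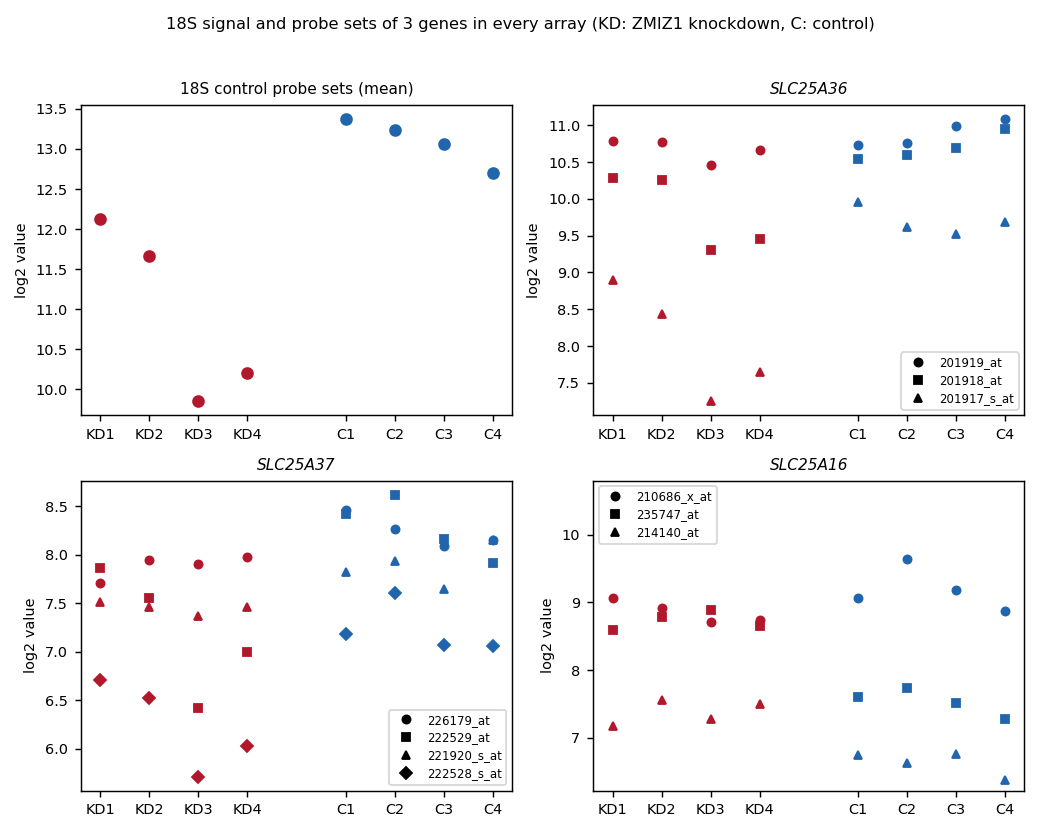
Log2 values (y axes) in every array, knockdown arrays left and control arrays right, of the mean 18S control signal and of 3 to 4 probe sets each of SLC25A36, SLC25A37 and SLC25A16. Probe sets 201917_s_at, 201918_at, 222529_at and 222528_s_at are lowest in knockdown arrays 3 and 4, where the 18S signal is lowest, whereas 226179_at, 221920_s_at and 235747_at are level across the knockdown arrays.

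SLC25A17, a peroxisomal carrier of cofactors, was called on its dimmer probe set. Probe set 214210_at had values of 7.77, 7.65, 7.66 and 7.63 in knockdown arrays, against 8.42, 8.16, 8.26 and 8.20 in control arrays. The groups were well separated, and it fell by 0.58 ± 0.08 (SE; over all probe sets, adjusted p = 0.00168), or by 0.54 with knockdown arrays 1 and 2 alone (adjusted p = 0.0317). Its representative probe set 211754_s_at differed by -0.10 ± 0.08 and did not pass.

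Carrier family members annotated under other symbols, which the rule leaves out, were measured for 7 of 8 entries, and 2 rose, 1 fell and 4 did not pass (42.9% called, beside 22.1% of all genes). MTCH1, an outer membrane relative, rose by 0.41 ± 0.07 (SE; adjusted p = 0.00275), and SLC25A51, the mitochondrial NAD carrier listed as MCART1 on the array, by 0.47 ± 0.14 (adjusted p = 0.0356). SLC25A53, listed as MCART6, fell by 0.46 ± 0.07 (adjusted p = 0.00125), at 5.36 in knockdown and 5.82 in control arrays. UCP2, an uncoupling protein of lymphoid cells, averaged 12.15 in both groups.

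Carrier proteins reach the inner membrane through TOM, small TIM chaperones and the TIM22 complex. Of the 13 genes of this import route 3 rose, 1 fell and 9 did not pass (30.8% called, beside 22.1% of all genes). All measured genes of this list and of the lists that follow averaged above 6 in both groups. Of all genes at 6 or above in a group, 34.3% were called. TIMM29, a subunit of TIM22, rose by 0.59 ± 0.09 (SE; adjusted p = 0.000791), the small chaperone TIMM8B by 0.39 ± 0.10 (adjusted p = 0.0173) and the receptor TOMM22 by 0.33 ± 0.08 (adjusted p = 0.00997). AGK, another TIM22 subunit, fell by 0.47 ± 0.08 (adjusted p = 0.00248). TIMM22 itself differed by 0.35 and did not pass (adjusted p = 0.0528). Of the 11 genes of the presequence route TIMM17B rose (0.49), TIMM44 (-0.52) and HSPA9 (-0.34) fell and 8 did not pass (27.3% called). Of 16 other mitochondrial pores and transporters 2 rose, among them the pyruvate carrier subunit MPC2 (0.38), ABCB10 (-0.45) fell and 13 did not pass (18.8% called). The outer membrane pores VDAC1 (-0.31, adjusted p = 0.0644), VDAC2 (-0.04) and VDAC3 (0.00) did not pass. With the 18S covariate the difference of ABCB10 was near 0 (-0.06), and none of the calls in these lists held.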

How the data were processed

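RNA of 4 ZMIZ1 knockdown and 4 control CEM cultures was measured on arrays with 54675 probe sets. The authors deposited log2 values made with RMA, per the file headers and the submitters' processing notes. No version of RMA is named there. The deposited p-value is unadjusted, and the deposited ratio is a linear fold of knockdown over control, per the file headers. The workbook and the value table differed by at most 5.0e-09. After 62 control probe sets were left out, differences (knockdown minus control) were fitted with limma 3.58.1 in R 4.3.3 (lmFit, eBayes), with Benjamini-Hochberg adjustment over 20282 genes (1 probe set per single-symbol gene, with the highest mean) or, where stated, over 54613 probe sets. Symbols are those of the 2011 annotation, updated by gene ID for 40280 of 41479 single-symbol probe sets. A log2 value under 6 was called dim. The fit was tested on simulated data. Arrays give no counts, so their number limits the precision.

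Members and gene lists were chosen with earlier results of these data known. Tests and alternatives were set for 12 genes. These are the members past the threshold and, in each role group without one, the member with the smallest p. Other members are given as a description, some with an adjusted p or an interval. Of other lists, up to 4 called genes are named. The values of 1 carrier, which is counted in all totals, and of a few genes of other lists are not reported here. SLC25A16, SLC25A17, SLC25A36 and SLC25A1 were described further after their values were seen. Promoter windows came from RefSeq (GRCh38.p14). The alternatives were the replicate block, the mean of probe sets, removal of _s_at and _x_at or dim probe sets, median centring, an equal-variance test, a mean-variance trend, the 18S covariate, knockdown arrays 1 and 2 only, and each array left out.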

Additional observations from a re-analysis of the deposited data

Results flagged for a closer look

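In 4 of the 90 sets of 4 values (45 carriers in both groups), an array stood apart from the other 3 of its group by a gap whose share of the group's range exceeded Dixon's 95% limit; chance alone flags about 5% of such sets. SLC25A45 was 6.86 in knockdown array 1, against 7.11 to 7.13 in the other knockdown arrays. SLC25A13 was 8.41 in control array 1, against 7.77 to 7.88 in the other controls. SLC25A29 was 8.77 in control array 4, against 9.01 to 9.05 in the other controls. SLC25A41 was 5.53 in control array 2, against 5.68 to 5.70 in the other controls.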

How the results depend on the processing

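The fall of ZMIZ1 kept its call under all 17 alternatives, at -0.46 with the mean of its probe sets and -1.25 to -1.15 with an array left out. The number of called carriers, 9 of 45 (6 higher, 3 lower), was 4 (3 higher, 1 lower) with the equal-variance test, 0 with the 18S covariate (0 higher, 0 lower; 246 of all genes) and 4 (2 higher) with knockdown arrays 1 and 2 only (1889 of all genes); with the mean of probe sets 5 fell. Leaving out an array gave 5 to 10 called carriers, 3 to 7 higher and 2 to 4 lower, beside 3158 to 4344 of all genes. The number of called carriers was 5 without control replicate 3 or knockdown replicate 4. In each of these 2 fits 15.6% of all genes passed, beside 22.1% with all 8 arrays. With either of these replicates or knockdown replicate 3 left out, 3 carriers rose. The equal-variance test called 2860 of all genes. The other gene lists, markers left out, held 7, 13, 11, 16 and 4 measured genes, and 13 genes of them passed. This number was 8 without _s_at and _x_at probe sets, 8 with the equal-variance test and 0 with the 18S covariate. It was 5 with knockdown arrays 1 and 2 only and 10 to 15 with an array left out. The median difference of the carriers, 0.04, was 0.07 without _s_at and _x_at probe sets, 0.08 without dim genes, 0.07 with arrays centred, -0.01 with the 18S covariate, 0.01 with knockdown arrays 1 and 2 only and 0.00 to 0.07 with an array left out, including 0.07 without control replicate 1 or 4. Centring moved the median of all genes to 0.06. Of carrier probe sets 17 passed, against 0 with the 18S covariate and 7 with knockdown arrays 1 and 2 only, both added after the data were seen. SLC25A13 differed by -0.09 with the mean of its probe sets. SLC25A3, near 0, differed by -0.01 with the 18S covariate, by 0.00 with knockdown arrays 1 and 2 only, and by -0.01 to 0.02 with an array left out (-0.01 without control replicate 3 and 0.00 without knockdown replicate 4). The causes were not tested. With the replicate block 9 carriers passed (6 higher, 3 lower), without SLC25A44 (adjusted p = 0.0779) but with another carrier that rose; the labels call the cultures non-paired, and deviations of same-numbered arrays correlated from -0.0872 to 0.0572.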
